A study of Mus musculus with 5 samples.

Results

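Basal and luminal cells were compared inside mouse MMTV-PyMT tumor organoids that were kept in basement membrane extract (BME), the matrix in which the labels record no invasion. Wells were classed on their own mRNA. After a limit on cycling genes, a well was basal when Krt5, Krt14 and Krt17 together held at least 5 of each 10000 counts, and luminal when these 3 keratins held under 2 and Krt8, Krt18 and Cd14 together at least 5. This gave 141 basal and 162 luminal wells, 303 of the 810 BME wells that passed the filters and of the 1920 wells on the plates used. Each plate was a 384-well plate of single sorted cells, read by SORT-seq, a method that tags each mRNA molecule near its poly(A) end, and 3 such plates held cells from BME. The other 2 plates held cells of the same organoids from Collagen I, where the labels record invasion. The study describes 3 plates for each matrix, and the remaining Collagen I plate is not used here. All cells came from organoids that were released from BME, embedded again in Collagen I or BME and cultured for 5 days. The MMTV promoter drives the PyMT oncogene in mammary epithelium, so both classes are tumor cells of a single genetic model, an organoid line that also carries CFP-tagged E-cadherin.

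The mammary duct has an inner layer of luminal cells, marked by keratins 8 and 18, and an outer basal layer next to the basement membrane, marked by keratins 5, 14 and 17. Basal cells depend on the transcription factor p63, hold on to the basement membrane through hemidesmosomes, and in the normal gland contract to expel milk. Luminal cells face the lumen, seal it with tight junctions, and include hormone-sensing cells and secretory progenitors.

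The classes took similar shares of the wells but not the same share on every plate. Basal wells numbered 46, 60 and 35 on BME plates 1 to 3, against 56, 36 and 70 luminal wells. Basal wells made up 17.5% ± 5.13 and luminal wells 20.0% ± 6.27 of the wells that passed the filters (SD, n = 3 plates). A further 54.7% ± 2.93 exceeded the cycling limit, which was 4 of each 10000 counts for Mki67, Top2a, Cdk1, Ccnb1, Birc5 and Ube2c together. The 57 wells with a keratin sum from 2 to 5 belonged to neither class. The boundary cut through a continuous range. The lowest basal wells had keratin sums of 5.24, 5.02 and 5.18 on the 3 plates, and the highest wells left out for being under 5 had 4.62, 4.22 and 4.51. The luminal wells with the highest keratin sums had 1.94, 1.91 and 1.90, and the next wells above the limit had 2.02, 2.07 and 2.04.

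**Figure D1:**
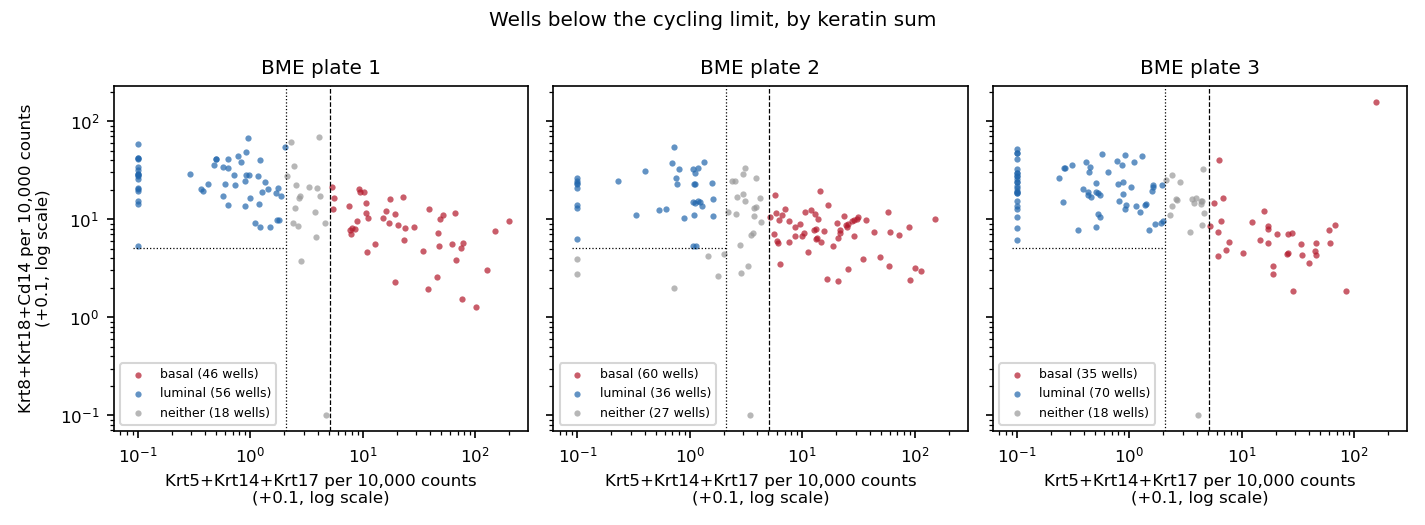
Each point is a well below the cycling limit, with the summed basal keratins on the x axis and the summed luminal markers on the y axis (both per 10000 counts, plus 0.1, log scales), in red for basal, blue for luminal and grey for neither, and dashed and dotted lines mark the limits. Red wells spread along the x axis at luminal sums that mostly overlap the lower part of the blue range, and a lone red well on BME plate 3 lies at a luminal sum of 158.

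Most basal wells held several basal keratins together with luminal markers. Of the 141 basal wells, 139 had counts of Krt14, 123 of Krt5 and 99 of Krt17, and 88 had all 3. Krt8 was also counted in 135 of them, Krt18 in 107 and Cd14 in 133, and in 108 the luminal sum reached the value of 5 that luminal wells had to reach. The median keratin sum was 19.9, 16.6 and 18.8 in basal wells, against 0.533, 0.745 and 0.339 in luminal wells. Median counts per well were 16930, 27504 and 26859 in basal wells, against 22725, 27557 and 25532 in luminal wells. Depth was thus lower for basal wells on plate 1 and similar on the others. Genes of chromosome M held a median of 16.2, 11.2 and 11.8% of the counts in basal wells, against 17.7, 14.7 and 15.7% in luminal wells, lower in basal wells on all 3 plates, and the part of this in the results was not tested. Of 10 immune markers 5 were in the files, with Csf1r and Cd3e at 0, and they summed to 1.15 to 4.14 CPM in basal sums and 1.78 to 3.53 CPM in luminal sums, where CPM is a gene's count divided by the summed count of all genes in a class on a plate and scaled to a sum of 1000000. All 10 fibroblast markers summed to 25.9 to 43.4 CPM in basal sums and 33.9 to 60.9 CPM in luminal sums, with Lum and Thy1 at 0, and the 7 endothelial markers in the files to 3.10 to 4.14 and 2.12 to 3.21 CPM, with Cdh5, Kdr, Vwf, Tek and Emcn at 0.

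For comparison across genes, the counts of each class were summed per plate, giving 3 basal sums of 966897 to 1739432 counts and 3 luminal sums of 1121874 to 2183717 counts. Levels are given in CPM, in the order of BME plates 1 to 3. The genes of the rule are described and not tested. Krt5 averaged 1749 ± 325 CPM in basal sums and 24.2 ± 6.42 CPM in luminal sums, and Krt14 averaged 1180 ± 201 and 25.5 ± 4.93 CPM (SD, n = 3 each). Cd14, a co-receptor for bacterial lipopolysaccharide, averaged 398 ± 84.8 CPM in basal sums and 1666 ± 392 CPM in luminal sums.

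A gene of the rule could be tested where the gate was set without it. With Krt17 left out of the keratin sum and the rest of the rule kept, Krt17 had 229, 241 and 462 CPM in basal sums, against 19.7, 21.2 and 16.01 CPM in luminal sums, a log2 fold change of 4.05 ± 0.23 (SE; edgeR adjusted p = 3.9e-07). With luminal wells chosen on low basal keratins alone, Cd14 had 496, 348 and 351 CPM in basal sums, against 2084, 1232 and 1608 CPM in luminal sums, and was lower in basal cells by edgeR (log2 fold change -2.06 ± 0.08, adjusted p = 4.4e-20). Krt8 did not pass in this gate, being lower in basal sums on plates 1 and 2 and higher on plate 3. It had 331.95, 343 and 563 CPM in basal sums, against 459, 430 and 367 CPM in luminal sums, and the log2 fold change of -0.08 had a 95% interval from -1.13 to 0.97 (edgeR adjusted p = 0.91). For Krt18 the value was -1.29 with an interval from -3.04 to 0.46 (edgeR adjusted p = 0.25). On plate 3 a single basal well supplied 39% of the Krt8 counts of the basal sum, and in the wells of the full rule, which used Krt8 to choose luminal wells, the median of Krt8 per well was 2.71, 2.92 and 2.35 per 10000 counts in basal wells, against 3.60, 3.97 and 3.21 in luminal wells.

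The question of the comparison was which other genes set basal apart from luminal cells in organoids cultured without Collagen I. edgeR's quasi-likelihood test with the plate as a block was applied to 8989 genes, and 972 were higher and 787 lower in basal sums at an adjusted p under 0.05, which is 10.8% and 8.76% of the genes tested and 19.6% in both directions. Without the plate as a block the calls were 657 higher and 445 lower. In 1491 of the 1759 called genes the 3 basal sums did not overlap the 3 luminal sums, beside 27.3% of all genes tested, and 435 higher and 313 lower genes differed by more than 2-fold. Leaving out BME plate 3 gave 1030 calls. The median log2 fold change over all genes tested was 0.003. The counts of list members given below are to be read beside the 10.8% higher and 8.76% lower over all genes tested. Whether each plate was filled from a culture of its own is not stated, so the spread between plates may be technical. With 3 pairs of sums the p-values also lean on the spread pooled over genes. Very small ones therefore do not measure the spread of that gene between plates alone.

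Most tested transcription factors of the basal lineage were higher in basal sums. Of 16 on the list, 8 had enough counts for the test. Of these 7 were higher and none lower, beside 10.8% and 8.76% of all genes tested, with a median log2 fold change of 2.94. A gene with enough counts in 1 class alone could enter the test, so the tested members are not an even sample of the list. Trp63 (chr16:25683763-25892102, mm10), which encodes p63, had 250, 214 and 209 CPM in basal sums, against 25.4, 33.9 and 26.1 CPM in luminal sums. The groups lay far apart on every plate, and the log2 fold change was 2.97 ± 0.15 (SE; edgeR adjusted p = 9.9e-16). Snai2 (chr16:14705852-14709385), a zinc finger repressor linked to mammary stem cell activity and to epithelial-mesenchymal transition, had 150, 143 and 143 CPM in basal sums, against 6.35, 5.35 and 13.7 CPM in luminal sums, a log2 fold change of 3.96 ± 0.21 (edgeR adjusted p = 2.0e-14). Id4, an inhibitor of basic helix-loop-helix factors that marks mammary basal cells, was higher with a log2 fold change of 3.57 ± 0.22, and Lmo1, a LIM-domain cofactor, with 2.90 ± 0.20. Trp73, the p63 relative that encodes p73, was counted at 19.6, 10.9 and 13.4 CPM in basal sums, against 2.12, 0.892 and 0.458 CPM in luminal sums (log2 fold change 3.66 ± 0.58, edgeR adjusted p = 1.5e-05). The exception was Tbx3, a T-box factor of mammary development, with a log2 fold change of -0.32 that did not pass.

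Genes that anchor cells to the basement membrane rose with few exceptions. Of 12 genes of the hemidesmosome and its laminin, 10 were higher and none lower, with a median log2 fold change of 1.06. Col17a1 (chr19:47646344-47692094), the transmembrane collagen of the hemidesmosome, had 481, 447 and 421 CPM in basal sums, against 33.9, 33.9 and 23.8 CPM in luminal sums (log2 fold change 3.89 ± 0.13, edgeR adjusted p = 1.4e-19). Lama3 (chr18:12333819-12583013), the alpha chain of the anchoring laminin, had 200, 166 and 177 CPM in basal sums, against 9.88, 9.81 and 17.9 CPM in luminal sums. No luminal sum came near a basal one, and Lama3 rose by 3.76 ± 0.18 on the log2 scale (edgeR adjusted p = 9.9e-16). Lamb3, the gene of the beta chain of the same laminin, had 184, 232 and 205 CPM in basal sums, against 203, 190 and 193 CPM in luminal sums. These Lamb3 values overlapped, and its log2 fold change was 0.07 ± 0.11 (edgeR adjusted p = 0.73). Thus the alpha chain gene passed the test and the beta chain gene did not. Itgb4 and Itga6, the integrin subunits of the hemidesmosome, rose by 1.84 ± 0.12 and 1.07 ± 0.13, and Col7a1, the collagen of anchoring fibrils, by 4.03 ± 0.27.

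Cell-to-cell adhesion differed by type of junction. Desmosome genes were higher in basal sums in 7 of 8 tested cases, with a median log2 fold change of 1.33, and tight junction and apical polarity genes were lower in 8 of 15, with none higher and a median of -0.57. Dsp, which links desmosomes to keratin filaments, had 823, 636 and 613 CPM in basal sums, against 214, 186 and 217 CPM in luminal sums (log2 fold change 1.72 ± 0.10, edgeR adjusted p = 9.0e-14). Pkp1, a desmosomal plaque protein of stratified epithelia, rose by 2.60 ± 0.17, and Perp, a desmosomal membrane protein and p63 target, by 2.05 ± 0.10. On the other side, Cldn3, a sealing claudin, had 13.4, 16.1 and 27.9 CPM in basal sums, against 74.1, 88.3 and 53.1 CPM in luminal sums (log2 fold change -1.95 ± 0.25, edgeR adjusted p = 4.9e-06). Cldn7, Cldn8, Tjp3 and Llgl2 were also lower, with log2 fold changes from -2.15 to -1.40. Cdh1, the E-cadherin of adherens junctions, had 188, 211 and 210 CPM in basal sums, against 235, 171 and 198 CPM in luminal sums, and its log2 fold change was 0.01 ± 0.12 (edgeR adjusted p = 0.97). Without the plate as a block, 5 of the tight junction and polarity genes were lower.

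Keratins outside the rule, contractile genes and mesenchymal genes were read next, because basal cells are often described with them. Krt15, a keratin of basal layers, had 24.8, 19.5 and 41.4 CPM in basal sums, against 2.82, 8.02 and 2.29 CPM in luminal sums (log2 fold change 2.83 ± 0.42, edgeR adjusted p = 1.5e-05). Of 14 contractile genes of myoepithelial cells, only 6 had enough counts for the test, and all 6 were higher, with a median log2 fold change of 1.07. Tpm2, a muscle tropomyosin, rose by 3.92 ± 0.34, Smtn (smoothelin) by 1.64 ± 0.18 and Cald1 (caldesmon) by 1.09 ± 0.12. The defining myoepithelial genes were at or near 0: Acta2 had no count in any of the 6 sums, and Cnn1 and Oxtr had 1 count each in all. The wells called basal were thus high in Trp63, which the rule did not use, and lacked these markers of contractile myoepithelium.

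Of 12 tested genes on the list of EMT factors, cadherins, Vim and Epcam, 4 were higher and none lower, and the list median was -0.03. Apart from Snai2 and Cdh3, the P-cadherin of basal cells (log2 fold change 2.88 ± 0.21), these were Vim and Cdh2. Vim, the intermediate filament of mesenchymal cells, had 277, 493 and 478 CPM in basal sums, against 152, 229 and 132 CPM in luminal sums, so that the lowest basal value stood only a little above the highest luminal one (log2 fold change 1.28 ± 0.17, edgeR adjusted p = 5.5e-04). N-cadherin, encoded by Cdh2, differed by 0.76 ± 0.15. Twist1 had 10.3, 6.32 and 6.21 CPM in basal sums, against 9.17, 7.13 and 10.1 CPM in luminal sums, and Epcam had 297, 308 and 264 against 307, 374 and 281 CPM. Neither passed the test, with log2 fold changes of -0.24 and -0.16.

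Matrix genes were higher in 15 of 22 tested cases, with 1 lower and a median log2 fold change of 0.95. Sparc (chr11:55394500-55423183), a secreted collagen-binding glycoprotein, had 1308, 1257 and 1133 CPM in basal sums, against 22.6, 52.6 and 30.2 CPM in luminal sums (log2 fold change 5.16 ± 0.19, edgeR adjusted p = 3.4e-08). Every basal sum was many times every luminal one, yet with luminal wells chosen on low basal keratins alone the log2 fold change of 4.58 did not pass (edgeR adjusted p = 0.075). The type IV collagen genes Col4a1 and Col4a2, which encode the network of the basement membrane, rose by 1.99 ± 0.20 and 2.54 ± 0.21. Fn1, the gene of fibronectin, went the other way in its levels without passing the test. It had 92.0, 127 and 353 CPM in basal sums, against 771, 821 and 484 CPM in luminal sums, and the log2 fold change of -2.00 had an SE of 0.80 (edgeR adjusted p = 0.29). Up to 62% of the Fn1 counts of a basal sum came from 1 well, and Fn1 was lower without BME plate 2 (-1.61, edgeR adjusted p = 2.7e-31) or 3 (-2.89, 9.3e-07), where the 2 pairs left lean on the spread pooled over genes. Among proteases and their inhibitors 4 of 14 were higher and 4 lower. Serpine2, a secreted inhibitor of serine proteases, was lower by edgeR with a log2 fold change of -1.37 ± 0.09. Mmp3, the metalloprotease stromelysin-1, had no count in the basal sums and 145 counts in 13 luminal wells, and was at least 37.6-fold lower in basal cells, taking 3 counts over the basal sums as the floor, a call lost without the plate as a block (edgeR adjusted p = 0.28).

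Ligands and receptors of several signalling pathways also divided the classes. In the Notch pathway, through which neighbouring cells instruct each other, 5 of 14 tested genes were higher and 1 lower. The higher ones included all 3 tested ligands. Dll1 had 72.4, 51.7 and 44.5 CPM in basal sums, against 6.35, 7.13 and 6.41 CPM in luminal sums (log2 fold change 3.03 ± 0.26, edgeR adjusted p = 1.6e-10). Jag1 rose by 1.70 ± 0.20 and Jag2 by 2.17 ± 0.28, and Lfng, a glycosyltransferase that modifies Notch receptors, by 2.33 ± 0.44. The receptor Notch1 and the target Hes1 did not pass, with log2 fold changes of -0.14 and 0.24. The call of the lower gene, the receptor Notch3, was lost without BME plate 1 or 3.

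In the Wnt pathway 4 of 15 tested genes were higher and 5 lower, and the secreted inhibitors took opposite sides. Sfrp1, a Wnt-binding inhibitor, had 401, 303 and 326 CPM in basal sums, against 49.4, 51.7 and 41.7 CPM in luminal sums (log2 fold change 2.84 ± 0.13, edgeR adjusted p = 1.0e-16). Wif1, another secreted Wnt inhibitor, had 39.3, 24.7 and 30.0 CPM in basal sums, against 260, 249 and 371 CPM in luminal sums (log2 fold change -3.24 ± 0.15, edgeR adjusted p = 2.2e-16). Neither gene had overlapping groups, which for Wif1 was a condition of its selection. The ligand Wnt7b and the receptor Fzd5 were lower in basal sums, with log2 fold changes of -1.19 and -2.17. Without BME plate 3, 2 of the Wnt genes were higher. Fgfr2, the receptor for FGF7 and related ligands, had 91.0, 51.2 and 64.1 CPM in basal sums, against 9.17, 8.02 and 3.66 CPM in luminal sums, while Fgf7 itself, a growth factor better known from mesenchyme, had 15.5, 7.47 and 6.21 CPM in basal sums, against 100, 87.4 and 62.7 CPM in luminal sums. The receptor rose by 3.37 ± 0.26 and the ligand fell by 3.17 ± 0.23 (edgeR adjusted p = 1.9e-11 and 7.0e-12). Bmp7, a bone morphogenetic protein, rose by 2.81 ± 0.22. In its list of TGF-beta, activin and BMP genes 5 of 20 tested (25%) were higher and 3 (15%) lower, with a median of 0.13. Over all genes tested these shares were 10.8% and 8.76%. Without the plate as a block 3 of these 20 were higher and 1 lower.

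Target genes of YAP and TEAD, the factors that respond to mechanical load and cell contact, were higher in 12 of 25 tested cases and lower in 2, with a median log2 fold change of 0.53. Ajuba, a LIM protein that inhibits the Hippo kinases, had 133, 147 and 130 CPM in basal sums, against 38.1, 18.7 and 30.2 CPM in luminal sums (log2 fold change 2.21 ± 0.17, edgeR adjusted p = 6.3e-11). Ctgf, a secreted matricellular protein, had 44.5, 121 and 194 CPM in basal sums, against 7.06, 6.24 and 6.87 CPM in luminal sums, and rose by 4.17 ± 0.26 (edgeR adjusted p = 6.9e-12), although up to 60% of a basal sum came from 1 well and the call was lost with Krt17 left out of the keratin sum (edgeR adjusted p = 0.078). Its close relative Cyr61 had 90.0, 218 and 215 CPM in basal sums, against 88.9, 74.0 and 133 CPM in luminal sums, and did not pass (log2 fold change 0.78 ± 0.29, edgeR adjusted p = 0.16). Without BME plate 1 it was higher by 1.06 (edgeR adjusted p = 2.7e-12), where the pairs left lean on the spread pooled over genes. Axl, a receptor tyrosine kinase, and Fjx1, a secreted four-jointed homolog, were higher by 1.17 and 1.57 on the log2 scale.

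**Figure D2:**
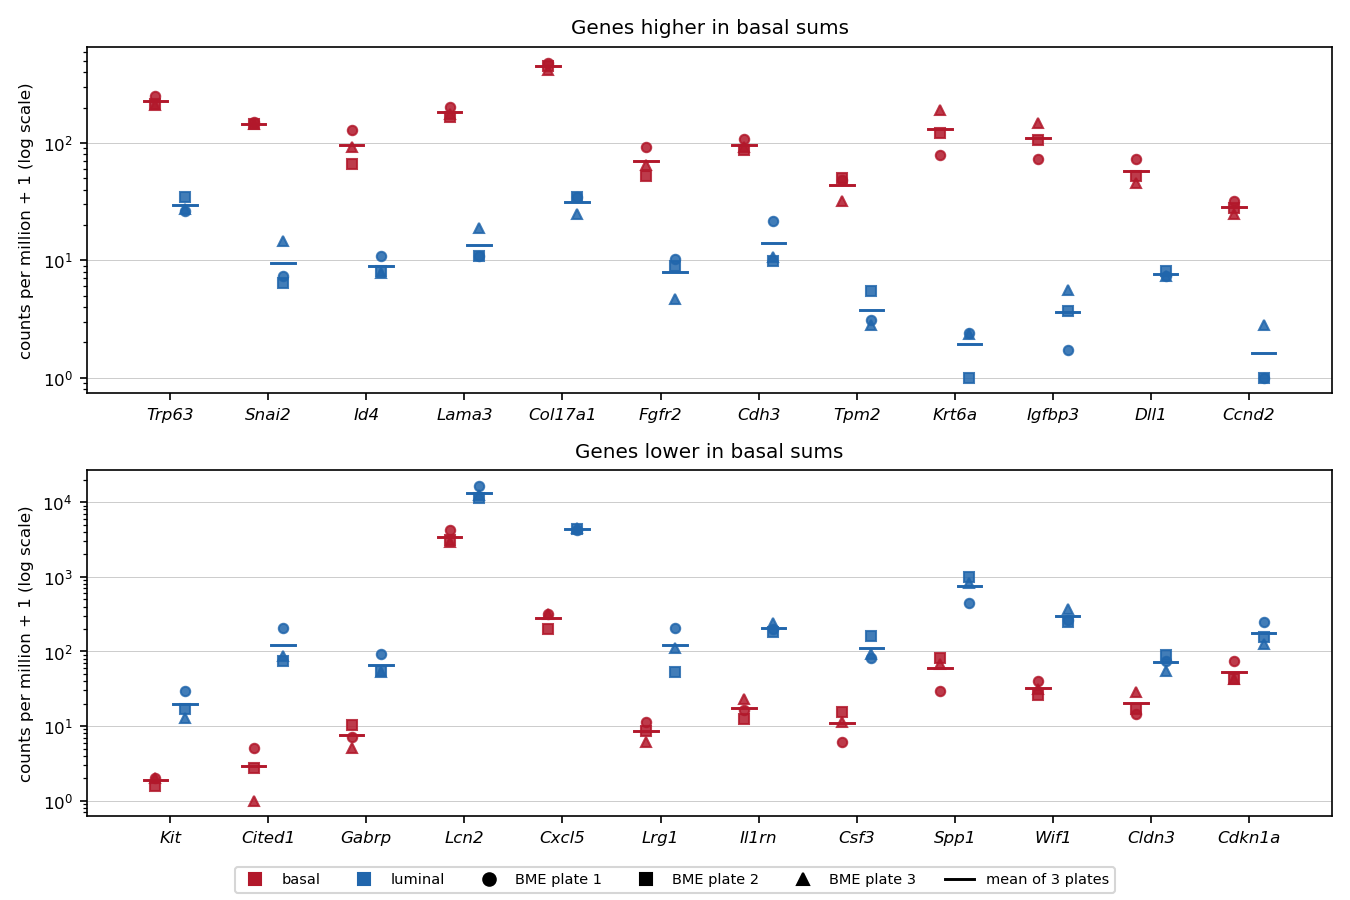
Levels of 12 genes that were higher (top) and 12 that were lower (bottom) in basal sums, as CPM plus 1 on a log axis; each symbol is a plate, red for basal and blue for luminal, and the short lines are means of 3 plates. For every gene drawn the red and blue symbols do not overlap. Col17a1, for example, had 421 to 481 CPM in basal sums and 23.8 to 33.9 CPM in luminal sums. Non-overlap held for 27.3% of all genes tested, and it was required of genes named for the largest fold changes, such as Col17a1.

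Among genes lower in basal cells, those of secreted defence and acute-phase proteins stood out, with 9 of 11 tested lower, none higher and a median log2 fold change of -1.45. Lcn2 (chr2:32384633-32388252), the iron-siderophore-binding lipocalin, had 4223, 3085 and 2931 CPM in basal sums, against 16651, 11318 and 12377 CPM in luminal sums, a log2 fold change of -1.99 ± 0.06 (edgeR adjusted p = 4.8e-20). It was thus abundant in both classes and several-fold lower in basal sums on each plate. Il1rn, the antagonist of the interleukin-1 receptor, had 15.5, 11.5 and 21.7 CPM in basal sums, against 201, 182 and 237 CPM in luminal sums (log2 fold change -3.72 ± 0.17, edgeR adjusted p = 1.0e-16). Lrg1, a leucine-rich acute-phase glycoprotein, differed by -3.82 ± 0.24, Cfb, complement factor B, by -4.27 ± 0.44, and C3, the central complement component, by -1.45 ± 0.14. Saa3, an acute-phase serum amyloid, had 2 counts in basal sums and 255 in luminal sums, a luminal-to-basal ratio of 99.2 with a 95% counting interval from 27.2 to 823, but up to 90% of a luminal sum came from 1 well.

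Chemokines, cytokines and the prostaglandin synthase gene were lower in 5 of 8 tested cases, with a median log2 fold change of -2.07. Cxcl5 (chr5:90759360-90761624), a neutrophil-attracting chemokine, had 315, 199 and 317 CPM in basal sums, against 4188, 4442 and 4499 CPM in luminal sums (log2 fold change -4.03 ± 0.17, edgeR adjusted p = 5.7e-06). With every well thinned to 2000 counts the log2 fold change was -3.19 and did not pass (edgeR adjusted p = 0.11). Csf3, the granulocyte colony-stimulating factor, had 5.17, 14.4 and 10.3 CPM in basal sums, against 81.2, 158 and 92.5 CPM in luminal sums (log2 fold change -3.48 ± 0.21, edgeR adjusted p = 1.5e-13). Ptgs2, the inducible prostaglandin synthase, had 5.17, 1.72 and 3.10 CPM in basal sums, against 31.0, 30.3 and 30.7 CPM in luminal sums. Cxcl1, another neutrophil chemokine, had 248, 230 and 390 CPM in basal sums, against 1142, 1539 and 1029 CPM in luminal sums. Its groups did not overlap either but lay closer together, and with a log2 fold change of -2.13 ± 0.37 it did not pass (edgeR adjusted p = 0.079). It was lower without BME plate 2 (-1.81, edgeR adjusted p = 1.8e-54) or 3 (-2.52, 2.6e-06). In those fits the pairs left lean on the spread pooled over genes, so these p-values do not measure the spread between plates.

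Markers of luminal progenitors and of hormone-sensing cells were unequal. Of 11 tested progenitor markers 5 were lower and 3 higher. Kit, a receptor tyrosine kinase, had 3 counts in basal sums and 84 in luminal sums, a luminal-to-basal ratio of 21.8 with a 95% counting interval from 7.20 to 108. Gabrp, a GABA receptor subunit, had 6.20, 9.20 and 4.14 CPM in basal sums, against 90.3, 53.5 and 52.2 CPM in luminal sums, and Ehf, an ETS-family factor, 38.3, 54.6 and 75.5 CPM, against 186, 168 and 189 CPM. Their log2 fold changes were -3.19 ± 0.26 and -1.70 ± 0.15 (edgeR adjusted p = 9.1e-11 and 3.9e-10). Sox9, a progenitor factor that the list also held, was counted at 995, 1006 and 996 CPM in basal sums, against 884, 658 and 794 CPM in luminal sums. It was higher by 0.35 ± 0.09 (edgeR adjusted p = 3.3e-03), a call lost without BME plate 2 or 3 (edgeR adjusted p = 0.11 each) or without the plate as a block (0.21). Bcl11a, a zinc finger factor, was higher by 1.47.

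Of 7 hormone-sensing markers tested, 4 were lower and none higher. Cited1, a transcriptional co-regulator of estrogen-responsive cells, had 4.14, 1.72 and 0 CPM in basal sums, against 208, 73.1 and 86.1 CPM in luminal sums (log2 fold change -5.84 ± 0.30, edgeR adjusted p = 3.6e-15). Foxa1 and Xbp1, factors that act with the estrogen receptor, differed by -1.23 ± 0.12 and -1.71 ± 0.10. Prlr, the prolactin receptor, had 24.8, 22.999 and 23.8 CPM in basal sums, against 34.6, 23.2 and 35.3 CPM in luminal sums, and did not pass (log2 fold change -0.37, edgeR adjusted p = 0.28). Esr1, the gene of the estrogen receptor itself, was nearly absent. It had 5 counts in basal sums and 10 in luminal sums, and Gata3, a defining luminal factor, had 5 and 7. Elf5, the factor of the alveolar lineage, had 4 counts in basal sums and 20 in luminal sums. Gata3 and Esr1 were thus close to 0 in the wells called luminal.

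Secretory products of the luminal cell were lower in 4 of 8 tested cases and higher in 1. The higher gene was Plin2, which encodes a lipid droplet protein, with 129, 130 and 121 CPM in basal sums, against 90.3, 103 and 82.4 CPM in luminal sums (log2 fold change 0.45, edgeR adjusted p = 0.010), a call lost without BME plate 3 (0.39, edgeR adjusted p = 0.15) or without the plate as a block (edgeR adjusted p = 0.072). Spp1, the secreted phosphoprotein osteopontin, had 29.0, 80.5 and 66.2 CPM in basal sums, against 452, 987 and 832 CPM in luminal sums (log2 fold change -3.72 ± 0.12, edgeR adjusted p = 3.7e-20). Mgp, a matrix protein that inhibits calcification, had 79.6, 52.3 and 106 CPM in basal sums, against 959, 579 and 1133 CPM in luminal sums (log2 fold change -3.50 ± 0.11, edgeR adjusted p = 2.5e-20). The levels varied more between plates than the difference did. Wfdc18, a whey-acidic-protein relative, had 61.0, 207 and 30.0 CPM in basal sums, against 64.9, 227 and 59.1 CPM in luminal sums. It was highest on plate 2 in both classes and did not pass (log2 fold change -0.32 ± 0.15, edgeR adjusted p = 0.14).

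Regulators of the G1 phase were lower in 7 of 12 tested cases and higher in 1, with a median log2 fold change of -0.83, although wells with high cycling genes had been set aside. Cdkn1a, the p21 inhibitor of cyclin-dependent kinases, had 73.4, 42.0 and 42.4 CPM in basal sums, against 244, 154 and 126 CPM in luminal sums (log2 fold change -1.75 ± 0.14, edgeR adjusted p = 2.4e-11). Cdkn2a and Cdkn2b, kinase inhibitors of the INK4 locus, differed by -2.25 ± 0.38 and -1.88 ± 0.38. The D-type cyclins divided. Ccnd1 had 125, 225 and 159 CPM in basal sums, against 349, 637 and 486 CPM in luminal sums (log2 fold change -1.55 ± 0.10, edgeR adjusted p = 9.3e-13). Ccnd2 had 31.0, 27.0 and 23.8 CPM in basal sums, against 0, 0 and 1.83 CPM in luminal sums (log2 fold change 4.88 ± 0.54, edgeR adjusted p = 4.6e-08), with up to 70% of a basal sum from 1 well. Of 27 tested S phase genes 1 was lower, and with the cycling limit left out 30 could be tested and 26 were lower, so this count depended on the limit.

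Genes of hypoxia and glycolysis were higher in 16 of 21 tested cases and lower in none, mostly by small amounts, with a median log2 fold change of 0.58. This count of higher genes was 11 without the plate as a block. Vegfa, the vascular growth factor induced by hypoxia, had 501, 493 and 495 CPM in basal sums, against 144, 127 and 174 CPM in luminal sums (log2 fold change 1.72 ± 0.11, edgeR adjusted p = 2.1e-13). Car9, a hypoxia-induced carbonic anhydrase, rose by 1.36 ± 0.15 and Slc2a1, the glucose transporter GLUT1, by 1.00 ± 0.13. For Vegfa the basal sums were nearly equal and about 3 times the luminal ones. Among the immediate early genes, which dissociation can induce, 5 of 17 were higher and 4 lower. Egr1 had 245, 391 and 310 CPM in basal sums, against 69.9, 137 and 123 CPM in luminal sums (log2 fold change 1.51 ± 0.11, edgeR adjusted p = 1.6e-11). Fos had 118, 63.8 and 112 CPM in basal sums, against 54.3, 64.2 and 93.9 CPM in luminal sums, and did not pass (edgeR adjusted p = 0.088). Without BME plate 2 Fos passed (edgeR adjusted p = 0.005), in a fit that leans on the spread pooled over genes. The part of dissociation in these values was not tested. Ribosomal protein genes were nearly level, with 4 of 51 higher (7.84%, beside 10.8% of all genes tested) and a median of 0.13, and 0 higher without BME plate 3.

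**Figure D3:**
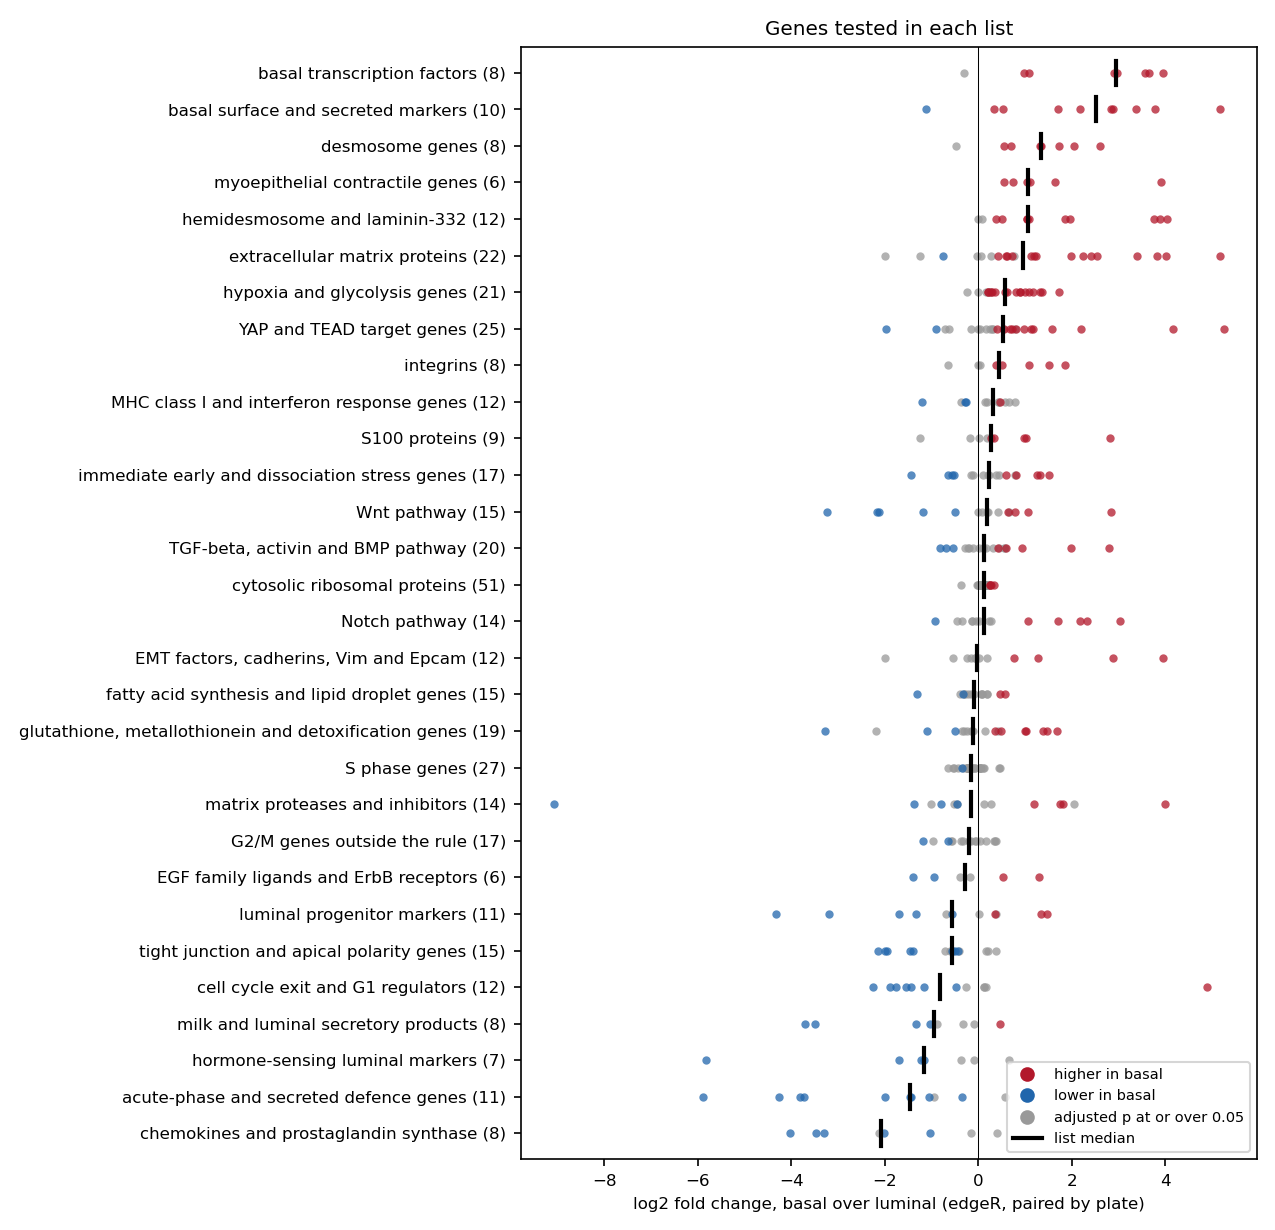
Log2 fold changes of basal over luminal sums for the tested genes of each list with 5 or more tested genes outside the rule, with the number tested in brackets; red points were higher and blue points lower in basal sums by edgeR, grey points did not pass, and black bars are list medians. Lists of basal factors, junction plaques and anchoring genes lie to the right with medians of 1.06 to 2.94, and chemokines and defence genes to the left at -2.07 and -1.45; the far left point is Mmp3, whose basal count was 0 and whose plotted value depends on the prior count.

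The widest differences among genes with at least 50 CPM in the higher class were found in genes that the lists only partly held. On the basal side the 20 with the largest log2 fold changes ran from Krt6a to Slc27a3. Krt6a, a keratin of stressed and wounded epithelium, had 77.6, 121 and 190 CPM in basal sums, against 1.41, 0 and 1.37 CPM in luminal sums (log2 fold change 6.92 ± 0.32, edgeR adjusted p = 1.8e-16), but was counted in only 25 basal wells, and 1 well supplied up to 54% of a sum. Krt6b is a close copy, and its reads can be split with those of Krt6a. Igfbp3, a secreted binding protein of insulin-like growth factors, had 72.4, 105 and 148 CPM in basal sums, against 0.706, 2.67 and 4.58 CPM in luminal sums (log2 fold change 5.25 ± 0.27, edgeR adjusted p = 1.8e-15), and it was counted in 79 basal wells. Sostdc1, a secreted BMP and Wnt modulator, had 402, 293 and 546 CPM in basal sums, against 13.4, 17.8 and 8.70 CPM in luminal sums, and Serpinf1, the anti-angiogenic factor PEDF, had 183, 210 and 189 CPM, against 4.94, 11.6 and 8.70 CPM. They rose by 5.06 ± 0.27 and 4.52 ± 0.19 (edgeR adjusted p = 2.2e-06 and 2.2e-17). Tnc, the matrix glycoprotein tenascin-C, Il17b, an interleukin-17 family cytokine, Rasa4, a Ras GTPase activator, Igfbp2, another binding protein of insulin-like growth factors, and Fbxo32, a ubiquitin ligase subunit, were in the same range, with log2 fold changes from 3.62 to 4.38.

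On the luminal side the 20 genes with the largest negative values included secreted and membrane proteins. Rbp4, the retinol carrier, had 10.3, 13.2 and 11.4 CPM in basal sums, against 196, 267 and 162 CPM in luminal sums (log2 fold change -4.20 ± 0.18, edgeR adjusted p = 2.2e-17). Vnn3, a pantetheinase family member, had 0, 1.72 and 2.07 CPM in basal sums, against 45.2, 73.1 and 83.4 CPM in luminal sums (log2 fold change -5.59 ± 0.35, edgeR adjusted p = 2.5e-13). Cyp1b1, a cytochrome P450 that oxidises estrogens, had 55.8, 35.1 and 44.5 CPM in basal sums, against 459, 415 and 394 CPM in luminal sums. These 3 genes were counted in most luminal wells or, for Vnn3, in 61 of 162. Pglyrp1, a peptidoglycan recognition protein, Sod3, the extracellular superoxide dismutase, and Kcne3, a potassium channel subunit, were lower with log2 fold changes of -3.07, -3.80 and -3.14 (edgeR adjusted p from 1.8e-15 to 0.017).

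Promoter windows of genes that moved in opposite directions are shown to set their letters side by side. RefSeq windows (GRCm38.p6, 250 bases before to 50 after the start) were matched to 6816 of the 8989 genes tested. The letters CAGGTG on either strand, the E-box that zinc finger repressors such as SNAI2 are known to bind, occurred in 15.9% of these windows, in 16.6% of the windows of genes higher in basal sums and in 17.8% of those lower. Among the 20 named higher genes 3 of 12 matched windows held it, and among the 20 named lower genes 5 of 16, so both sets did. The capitals mark the match in 2 windows from each side, Igfbp3 at chr11:7213874-7214173, Sparc at chr11:55420031-55420330, Lrg1 at chr17:56121897-56122196 (all minus strand) and Spp1 at chr5:104434861-104435160 (plus strand).
Igfbp3: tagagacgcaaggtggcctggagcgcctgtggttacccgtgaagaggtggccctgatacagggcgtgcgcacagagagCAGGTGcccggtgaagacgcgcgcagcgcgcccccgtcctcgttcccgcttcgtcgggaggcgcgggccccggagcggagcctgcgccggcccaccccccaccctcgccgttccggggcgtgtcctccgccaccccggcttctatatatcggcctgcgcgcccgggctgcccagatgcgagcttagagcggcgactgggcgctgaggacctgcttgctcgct
Sparc: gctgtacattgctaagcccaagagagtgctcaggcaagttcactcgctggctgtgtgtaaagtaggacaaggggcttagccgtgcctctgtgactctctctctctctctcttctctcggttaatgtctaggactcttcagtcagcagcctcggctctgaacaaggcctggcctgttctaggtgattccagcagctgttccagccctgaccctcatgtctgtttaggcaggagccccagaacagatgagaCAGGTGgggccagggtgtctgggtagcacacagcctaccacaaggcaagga
Lrg1: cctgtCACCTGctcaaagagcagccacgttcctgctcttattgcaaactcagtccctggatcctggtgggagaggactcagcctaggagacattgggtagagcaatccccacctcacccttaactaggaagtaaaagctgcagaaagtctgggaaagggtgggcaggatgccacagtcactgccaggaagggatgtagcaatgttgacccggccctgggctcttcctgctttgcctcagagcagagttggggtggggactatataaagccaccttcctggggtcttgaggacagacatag
Spp1: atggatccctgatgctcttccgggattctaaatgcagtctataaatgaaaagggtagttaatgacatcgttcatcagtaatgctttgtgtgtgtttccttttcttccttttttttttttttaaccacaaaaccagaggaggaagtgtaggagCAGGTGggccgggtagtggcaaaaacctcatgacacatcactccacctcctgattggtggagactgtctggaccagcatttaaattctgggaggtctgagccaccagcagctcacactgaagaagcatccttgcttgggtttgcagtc
In these the match began at position -172 in Igfbp3, -1 in Sparc, -245 in Lrg1 and -98 in Spp1, counted from the RefSeq start on which each window was set, which for Sparc lies inside the gene span given above. The AP-1 letters TGANTCA occurred in 4.59% of all windows, 6.14% of those higher and 5.21% of those lower, the TEAD letters GGAATG in 11.4, 11.7 and 10.8%, the C/EBP letters TTGCNNAA in 8.00, 7.25 and 10.1%, the kB motif in 1.70, 1.53 and 0.898% and the ETS letters GGAAGT in 29.5, 21.8 and 23.5%, in that order.

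Within a class the wells were not alike. The share of wells with any count depends on depth, so each well was also thinned to 2000 counts, which left out no well. Col17a1 was counted in 93.2% ± 5.77 of basal wells and 26.2% ± 13.5 of luminal wells, and after thinning in 49.7% ± 2.15 and 5.40% ± 2.57 (SD, n = 3 plates). Sparc behaved alike, at 69.0% ± 3.02 of thinned basal wells and 7.16% ± 4.82 of thinned luminal wells. Krt6a was counted in 18.5% ± 6.53 of basal wells before thinning and in 2.62% ± 2.30 of luminal wells, a minority even where it was highest. Of the luminal genes, Lcn2 was counted in 96.8% ± 2.21 of thinned basal wells and in all luminal ones, and its difference is therefore one of level. Cxcl5 was counted in 20.2% ± 10.4 of thinned basal wells and 65.3% ± 3.42 of thinned luminal wells, and Cited1 in 0% and 11.1% ± 5.87.

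Wells between the limits, with 2 to 5 keratin counts of each 10000, had levels between the classes for Trp63, Sparc and Cxcl5. In their sums Trp63 averaged 98.4 CPM, against 224 ± 22.6 CPM in basal and 28.5 ± 4.70 CPM in luminal sums (SD, n = 3 each). Sparc averaged 291 CPM, against 1233 ± 90.2 and 35.1 ± 15.6 CPM, and Cxcl5 1717 CPM, against 277 ± 67.6 and 4376 ± 165 CPM. Id4 did not lie between them, at 6.43 CPM against 94.6 ± 31.0 in basal and 7.96 ± 1.67 in luminal sums. Median counts of these wells were 12985, 11842 and 24725, fewer than in either class, and whether they hold mixtures or single cells was not tested.

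The same classes were taken from the 2 Collagen I plates, to ask where the contrast between basal and luminal cells differed from that in BME. They held 136 basal and 156 luminal wells at a median of 3455 to 6241 counts per well, several-fold fewer than in BME, and matrix and sequencing of the plates cannot be told apart. In an edgeR fit of all 10 sums the contrast differed for 229 of 9404 genes, higher in Collagen I for 91 and lower for 138, which is 0.968% and 1.47% of the genes tested and 2.44% in both directions. With BME wells thinned to the median depth of the Collagen I wells and classed anew, which left 41, 53 and 33 basal and 38, 26 and 49 luminal wells in BME, 99 genes passed, and without Collagen I replicate 1 there were 110. Igfbp2 had 463 and 225 CPM in basal and 162 and 211 CPM in luminal sums of Collagen I, against 71.4, 166 and 112 CPM in basal and 2.82, 14.3 and 8.24 CPM in luminal sums of BME. Its contrast was smaller in Collagen I by -2.88 ± 0.38 on the log2 scale (SE; edgeR adjusted p = 7.7e-05), and the luminal levels were those that stood furthest apart. Ptgs2 had 136 and 31.1 CPM in basal and 23.1 and 19.5 CPM in luminal sums of Collagen I, against 5.17, 1.72 and 3.10 CPM in basal and 31.0, 30.3 and 30.7 CPM in luminal sums of BME. Here the contrast turned round, with a difference of 5.32 ± 0.58 (edgeR adjusted p = 7.2e-08). The higher basal level in Collagen I rested mainly on replicate 1, at 136 against 23.1 CPM. On replicate 3 the values of 31.1 and 19.5 CPM were few counts, in sums of 289408 and 308163. The basal values in BME were few counts too, so the size of the difference is uncertain.

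**Figure D4:**
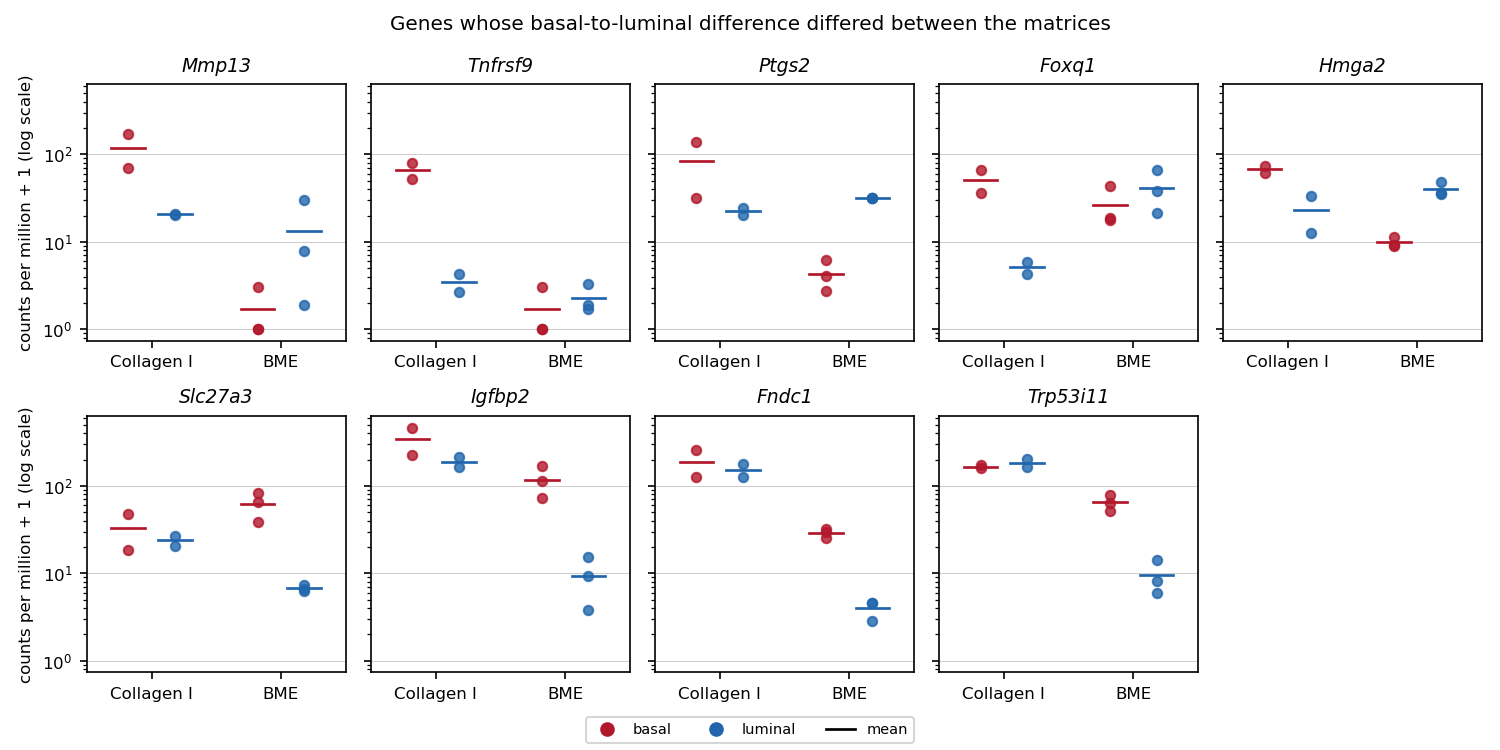
Levels of 9 of the genes with the largest differences of the contrast, as CPM plus 1 on a log axis; points are sums of a plate (2 from Collagen I, 3 from BME), red for basal and blue for luminal, and short lines are means. In the top row the red points exceed the blue ones in Collagen I while in BME the red means lie below the blue ones, and in the bottom row the blue points of BME lie lowest, as with Igfbp2 at 2.82 to 14.3 CPM.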

How the data were processed

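Wells of 3 BME and 2 Collagen I plates were analysed from the deposited expected counts per gene and well, which the authors made with SORT-seq and CEL-Seq2 chemistry, BWA and mm10 per the labels, collapsing molecular barcodes and correcting for their saturation, so that values need not be whole. The aligner version is not given in the sources used here. ERCC spike-ins were dropped, wells with over 2000 counts and under 8000 genes kept (which removed 90, 114 and 101 BME wells for depth and 8, 11 and 18 for genes), and no doublet caller was run on the sorted cells. Well barcodes recur on every plate by design and identify no shared cell. Counts of a class were summed per plate, rounded, and tested with edgeR 4.0.16 (TMM, filterByExpr, robust quasi-likelihood, plate as block, Benjamini-Hochberg), with limma 3.58.1 and DESeq2 1.42.0 as alternatives. Both sums of a pair come from the same plate, and their deviations correlated at 0.356, 0.246 and 0.0714. Named genes were the 20 with the largest log2 fold change in each direction among those with an adjusted p under 0.05, at least 50 CPM and non-overlapping sums, the members of fixed lists, genes named by the study, and for the matrices the 5 largest each way, and results of 2 genes are not reported here. The members and lists were chosen with earlier results of these data known. Positions are from GENCODE vM21 (658 of 660 genes). SEs and intervals of log2 fold changes were derived from the edgeR F statistic, so they also lean on the spread pooled over genes. Counting intervals and floors cover counting error only. Alternatives covered tools, scaling, filters, gates, well depth and quality, and each replicate left out. The script was tested on simulated data.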

Additional observations from a re-analysis of the deposited data

Results flagged for a closer look

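The difference between basal and luminal cells was not the same in both matrices for 229 of 9404 genes, by the edgeR test of the interaction of class and matrix over 10 sums. Collagen I wells were shallower (medians of 3455 to 6241 counts per well, against 16930 to 27557 in BME) and matrix and sequencing of the plates cannot be told apart, so the part of depth or of the run was not tested beyond the thinning given here. The values are log2 differences of the basal-to-luminal contrast, Collagen I minus BME.

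The contrast was higher in Collagen I for Mmp13, a collagenase (6.54 ± 0.77, SE), Tnfrsf9, a TNF receptor family member (5.64 ± 1.60), Ptgs2 (5.32 ± 0.58), Foxq1, a forkhead factor (4.06 ± 0.92), and Hmga2, a chromatin architectural protein (3.87 ± 0.51). Mmp13 had 169 and 69.1 CPM in basal and 19.8 and 19.5 CPM in luminal sums of Collagen I, against 2.07, 0 and 0 CPM in basal and 28.9, 0.892 and 6.87 CPM in luminal sums of BME. With 2 counts of Mmp13 and 2 of Tnfrsf9 in basal BME sums, the sizes of both differences depend on the prior count. Foxq1 did not pass without Collagen I replicate 1 or 3 (edgeR adjusted p = 0.40 and 0.41), and Tnfrsf9 did not pass without BME replicate 2 or 3 (0.11 and 0.39), without Collagen I replicate 1 or 3 (0.20 and 0.14) or with BME wells thinned to the median Collagen I depth and classed anew (0.97).

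The contrast was lower in Collagen I for Trp53i11, a p53-inducible membrane protein (-2.96 ± 0.36), Fndc1, a fibronectin-domain protein (-2.91 ± 0.49), Igfbp2 (-2.88 ± 0.38) and Slc27a3, an acyl-CoA synthetase (-2.80 ± 0.59). In each of these 4 genes the luminal sums of Collagen I exceeded the luminal sums of BME. Slc27a3 did not pass without Collagen I replicate 3 (edgeR adjusted p = 0.056), and it and Fndc1 did not pass with BME wells thinned to the median Collagen I depth and classed anew (0.089 and 0.096). Trp53i11 and Igfbp2 passed in every alternative that tested them.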

How the results depend on the processing

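Of the 1759 genes that differed between basal and luminal sums in BME (972 higher, 787 lower), DESeq2 called 781 (469 higher, 312 lower), of which 774 were also called by edgeR. A minimum of 50 counts in every sum of a class gave 1076 (586 and 490), wells thinned to 2000 counts 242 (135 and 107) of far fewer genes tested, and the cycling limit left out 3826 (1934 and 1892). Without the replicate block 1102 genes were called (657 and 445), 1093 of them shared. Among the lists, hypoxia and glycolysis genes then went from 16 to 11 higher of 21 tested. Tight junction and polarity genes went from 8 to 5 lower of 15 tested. Leaving out 1 BME replicate gave 1030 to 1561 calls (587 to 867 higher, 443 to 694 lower). The other scalings, filters, gates and tools kept these counts within 1.5 times. Of 229 called genes in the lists and named sets, 135 kept their call in every alternative that tested them. The call was lost for 66 with DESeq2, 54 without BME replicate 3, 51 without the block and 40 with thinned wells. A gene filtered out of an alternative was not counted as lost. With thinned wells 3 tight junction and polarity genes could be tested, against 15 in the main fit, and 0 of them passed. The sign of 7 of the 229 genes changed, 4 with thinned wells (Dsg2, Hk1, Itga3, Rab25) and 3 with the cycling limit left out (H2-D1, H2-K1, Lbp), 0 of these past the threshold. Of the 20 named genes in each direction, 17 higher and 19 lower ones kept their call in every alternative that tested them. For the difference between matrices, 229 calls (91 higher, 138 lower) became 104 with DESeq2 (40 and 64), 99 with BME wells thinned to the median Collagen I depth and classed anew (41 and 58) and 85 with all wells thinned to 2000 counts (41 and 44), and 110 to 221 when 1 replicate was left out (46 to 74 higher, 64 to 153 lower). The share of basal wells was 31.8% and of luminal wells 53.1% with the cycling limit left out, and 14.6 to 19.6% and 16.7 to 22.998% without 1 replicate. The causes were not tested. On data simulated at the totals of these sums, 73% of 2-fold and 95% of 4-fold changes were found in BME, so some small differences can be missed. The part of depth in this was not tested.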

Other observations

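Some lists showed a difference between the matrices more often than all genes tested, of which 0.968% were higher and 1.47% lower in the contrast of Collagen I. Among hypoxia and glycolysis genes 8 of 23 tested were lower and none higher, among cytosolic ribosomal proteins 11 of 51 were lower and none higher, and among secreted defence and acute-phase genes 4 of 13 were higher and none lower. Of the G1 regulators 4 of 12 were higher. In the desmosome, contractile, tight junction and Notch lists none of the 8, 7, 16 and 14 tested genes passed in either direction, in a test that on simulated data found 54% of 4-fold and 7% of 2-fold differences.

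Glutathione, metallothionein and detoxification genes were mixed within BME, with 7 of 19 higher and 3 lower in basal sums. The metallothionein genes Mt1 and Mt2, which bind metal ions, were higher by 1.00 and 1.47 on the log2 scale (Mt2 did not pass with Krt17 left out of the keratin sum, edgeR adjusted p = 0.055, or with the stricter limits on keratins, 0.18), as was Gclm, the modifier subunit of glutathione synthesis, by 1.69, while the estrogen hydroxylase Cyp1b1 fell by 3.28. S100 genes were higher in 5 of 9 cases (3 without BME replicate 3 and 3 without the plate as a block), led by S100a14 at 88.9, 126 and 162 CPM in basal sums, against 14.1, 12.5 and 25.6 CPM in luminal sums.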
